A study of Mus musculus with 16 samples.

Results

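The comparison is between cMyc+early and cMyc+lateCD23int cells, a pair of subpopulations of positively selected germinal center (GC) B cells from mouse spleen. It used 8 of the 16 libraries of the series, 4 per subpopulation, and 12505 of the 51912 genes in the file, those whose normalized counts averaged 10 or more over all 16 libraries. All cells came from cMyc gfp/gfp mice, in which the cMyc gene itself encodes cMyc fused to GFP, so that GFP reports cMyc protein. The mice were male and female, 6 to 15 weeks old, on a C57BL/6J background, and were immunized intraperitoneally with sheep red blood cells (SRBC) 7 d before the sort. B cells were enriched by removing CD43+ cells and sorted as B220+ CD38low CD95+ cMyc-GFP+. After CD69hi cells (cMyc+prePB) and CXCR4hi CD86lo dark zone cells had been gated out, cMyc+early cells were taken as CD23hi CD21/35hi and cMyc+lateCD23int cells as CD23int CD21/35int. A CD23lo gate gave the cMyc+lateCD23lo cells. The labels number the libraries 1 to 4 in each subpopulation but do not say whether libraries with the same number share animals, or whether animals were pooled, so that p-values measure the spread between these libraries.

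In a GC, B cells cycle between a dark zone (DZ), where they divide and mutate their antigen receptors, and a light zone (LZ), where they take up antigen and compete for help from T cells. Cells that receive help switch on cMyc for a short time. They may then reenter the DZ, leave as memory B cells (MBCs), or become plasmablasts and plasma cells. The comparison addresses how the transcriptome differs between cells at the start of this positive selection and cells at the next step, which the sort separates only by the surface levels of CD23 (encoded by *Fcer2a*) and CD21/35 (encoded by *Cr2*).

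The values are normalized counts, which the authors made by scaling the gene counts of each library with 1 size factor. Whole reads, recovered from these values, numbered 22630300 to 25153383 per library in cMyc+early and 19812080 to 25233703 in cMyc+lateCD23int, and 14650 to 15573 genes were detected per library of the series. Mitochondrial genes held 1.48% to 1.87% of the reads in cMyc+early and 1.62% to 2.95% in cMyc+lateCD23int, where replicate 1 was the highest and the other 3 libraries reached 1.90%. None of these measures separated the groups by an exact permutation test over the 8 libraries, whose smallest possible two-sided p is 0.0286 (adjusted p = 0.514 for reads, 0.344 for genes detected and 0.344 for the mitochondrial share). The correlation of log2 values had a median of 0.873 between cMyc+early libraries, 0.883 between cMyc+lateCD23int libraries and 0.877 between libraries of different groups, so that libraries were about as alike across the groups as within them.

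*Il10* was the only gene to pass an adjusted p of 0.05 (limma with Benjamini-Hochberg adjustment over all tested genes), which is 0.008% of the 12505 genes. *Il10* encodes interleukin-10, a cytokine that restrains inflammation and that B cells can secrete. Its normalized count was 2.10, 0.885, 1.92 and 0 in cMyc+early replicates 1 to 4, and 47.8, 127, 44.6 and 49.3 in cMyc+lateCD23int replicates 1 to 4. Every cMyc+lateCD23int library was far above every cMyc+early library, where no library held more than 2 reads of the gene. The mean in cMyc+lateCD23int was 67.2 ± 40.05 (SD, n = 4). Against a floor of 3 reads, taken in the library with the highest floor and equal to a normalized count of 3.14, this was at least 21.4-fold higher in cMyc+lateCD23int. The lowest cMyc+lateCD23int library was at least 14.2-fold above the same floor, which covers counting error only, since no molecular identifiers are in the data and several reads can come from 1 molecule.

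On the log2(normalized count + 1) scale, which understates changes of low genes, the difference of *Il10*, cMyc+early minus cMyc+lateCD23int, was -4.92 with a standard error of 0.68 and a 95% interval of -6.35 to -3.49 (adjusted p = 0.0120). The adjusted p of this gene was 0.0528 without cMyc+early replicate 4, 0.118 without cMyc+lateCD23int replicate 2 and 0.0575 without cMyc+lateCD23int replicate 4. It was 0.483 when the spread was estimated from the 8 libraries alone, while its direction held in all 21 alternatives run.

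*Il10* was also measured in the other 8 libraries. It reached 39.7 to 112 in cMyc+prePB and 84.6 to 199 in cMyc+lateCD23lo, so that the 4 cMyc+early libraries had lower values than each of the other 12. The gene lies at chr1:131019845-131024974 (GRCm38, + strand) and overlaps no other annotated gene. In bulk RNA, fewer *Il10*-expressing cells and less *Il10* RNA per cell cannot be told apart.

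**Figure D1:**
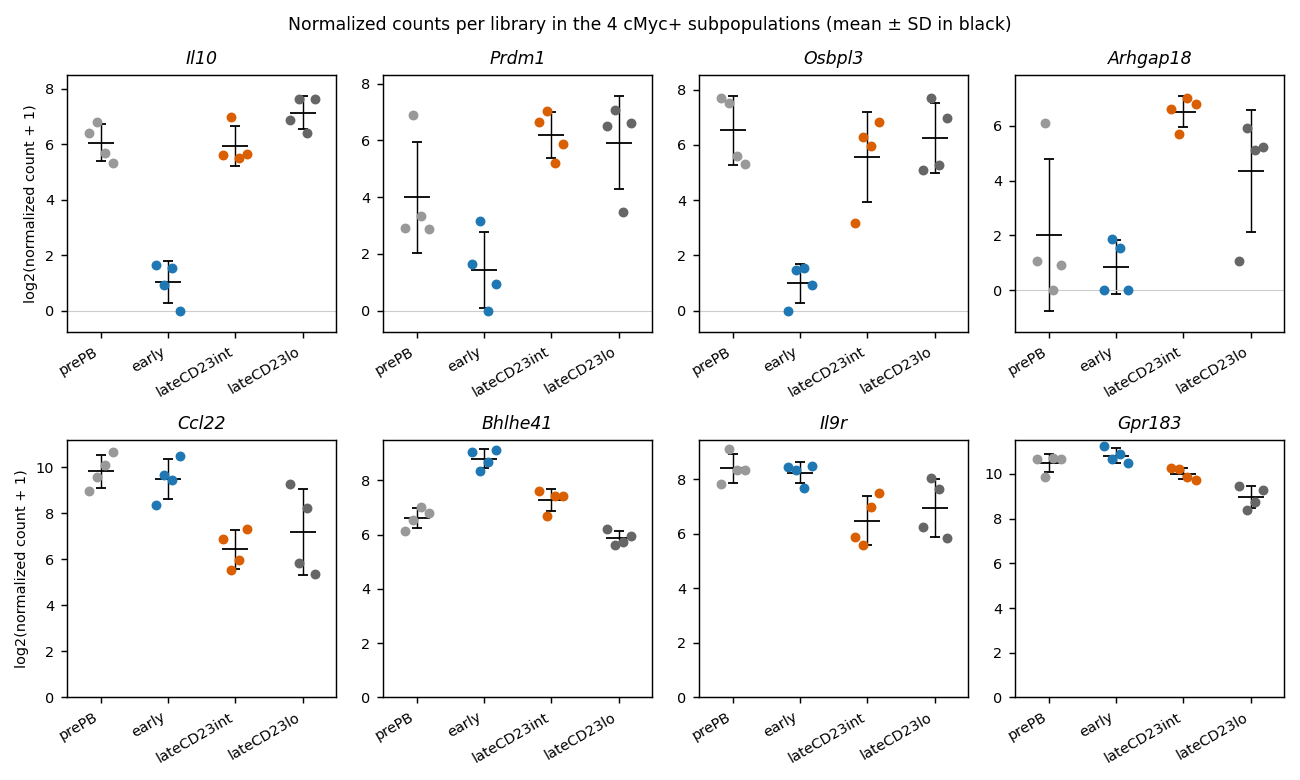
Normalized counts of 8 genes on a log2(normalized count + 1) axis, with 1 point per library in each of the 4 subpopulations and the mean ± SD of 4 libraries in black. *Il10*, *Prdm1*, *Osbpl3* and *Arhgap18* lie lower in cMyc+early than in cMyc+lateCD23int without overlap. The highest cMyc+early value of *Prdm1* is a normalized count of 7.96, in replicate 2. *Ccl22*, *Bhlhe41*, *Il9r* and *Gpr183* lie higher in cMyc+early, and only *Il10* passed the adjusted test.

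Factors that bind or regulate *Il10*, and its receptor, were examined next. Of 13 tested regulators, 1 was higher in cMyc+early and 1 higher in cMyc+lateCD23int at an unadjusted p under 0.05, and none passed after adjustment. Over all tested genes, 1.45% were higher in cMyc+early and 2.26% higher in cMyc+lateCD23int at that level. The regulator higher in cMyc+early was *Bhlhe41*, and the one higher in cMyc+lateCD23int was *Prdm1*. *Prdm1* (chr10:44437177-44528501, GRCm38, - strand) encodes Blimp-1, the repressor that drives plasma cell differentiation. Its normalized count was 2.10, 7.96, 0 and 0.903 in cMyc+early and 98.5, 130, 36.3 and 57.6 in cMyc+lateCD23int. The groups did not overlap, yet the difference of -4.76 on the log2 scale (SE 1.06, 95% interval -6.99 to -2.53) had an adjusted p of 0.545 in limma. In the other subpopulations *Prdm1* was uneven, at 6.31 to 119 in cMyc+prePB and 10.2 to 133 in cMyc+lateCD23lo.

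*Bhlhe41*, which encodes a transcriptional repressor of the basic helix-loop-helix family, had normalized counts of 526, 328, 410 and 551 in cMyc+early and 194, 103, 169 and 172 in cMyc+lateCD23int. All cMyc+early libraries were above all cMyc+lateCD23int libraries, and the difference was 1.51 on the log2 scale (SE 0.39, 95% interval 0.69 to 2.33, limma adjusted p = 0.688). Its means were 99.7 in cMyc+prePB and 58.5 in cMyc+lateCD23lo, below both groups compared. *Bhlhe41* overlaps 1 annotated gene on the other strand, *Gm43909*, and its reads may include some from there.

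The remaining regulators overlapped between the groups. *Batf*, an AP-1 family factor, averaged 3268 ± 815 in cMyc+early and 2492 ± 407 in cMyc+lateCD23int. *Ahr*, the aryl hydrocarbon receptor, was below 20 in 3 cMyc+early libraries and at 192 in replicate 2, and ranged from 26.5 to 219 in cMyc+lateCD23int. *Irf4*, a factor of both early activation and plasma cells, averaged 720 and 694, *Nfil3* 425 and 282, *Stat3* 3409 and 3457, and *Bhlhe40*, the paralog of *Bhlhe41*, 1071 and 1192. *Il10ra*, the ligand-binding chain of the IL-10 receptor, stood at 13.6, 34.5, 2.89 and 74.0 in cMyc+early and at 59.7, 53.9, 124 and 113 in cMyc+lateCD23int. One cMyc+early library, replicate 4, overlapped with the cMyc+lateCD23int range (difference -2.07, 95% interval -3.73 to -0.42, limma adjusted p = 1). *Il10rb*, the shared second chain, averaged 569 ± 120 and 611 ± 189 and showed no separation. It overlaps the protein-coding gene *Gm21970* on the same strand.

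Beside *Il10*, 7 further genes had the smallest p-values among those that did not overlap between the groups and were higher in cMyc+lateCD23int for every replicate number. *Prdm1* was one of them. Across all tested genes, 1.37% did not overlap with cMyc+lateCD23int higher and 1.11% with cMyc+early higher, and none of the genes below passed the limma test after adjustment (adjusted p = 0.545 for each of these 7). *Osbpl3*, which encodes an oxysterol-binding protein, was at 0 to 1.92 in cMyc+early and at 7.96, 77.4, 61.2 and 112 in cMyc+lateCD23int. *Arhgap18*, which encodes a GTPase-activating protein, was at 0 to 2.65 in cMyc+early and at 95.5, 50.9, 126 and 108 in cMyc+lateCD23int. Both genes held 3 reads or fewer in each cMyc+early library, so that the means of cMyc+lateCD23int were at least 20.5-fold higher for *Osbpl3* and at least 30.2-fold higher for *Arhgap18*. *Arhgap18* differed from *Il10* in the other subpopulations. It was near 0 in 3 of 4 cMyc+prePB libraries and in 1 of 4 cMyc+lateCD23lo libraries.

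The other 4 of these genes were well expressed in both groups. *Endou*, which encodes an RNA endonuclease, was at 874, 726, 975 and 874 in cMyc+early and at 1942, 1818, 1765 and 1423 in cMyc+lateCD23int. *Apoe*, the lipid carrier apolipoprotein E, was at 3508, 2925, 1618 and 1655 and at 5750, 5537, 4691 and 4773. *Lck*, a Src-family kinase best known from T cells, was at 2157, 3848, 3559 and 2967 and at 4700, 5996, 6518 and 6016. In each of the 3 the lowest cMyc+lateCD23int library exceeded the highest cMyc+early library, with differences of -1.01 (SE 0.21), -1.17 (SE 0.26) and -0.91 (SE 0.20) on the log2 scale. *Twsg1*, which encodes a modulator of BMP signalling, averaged 323 ± 219 and 938 ± 277. The levels of *Endou* in the other subpopulations were 683 ± 172 in cMyc+prePB and 1727 ± 375 in cMyc+lateCD23lo, and those of *Apoe* 5511 ± 1814 and 7492 ± 1668.

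*Lck* is on the list of T cell markers, and the other markers of that list were measured beside it. The summed level of the 8 tested members was 2426 to 4109 in cMyc+early and 4868 to 6817 in cMyc+lateCD23int, nearly all of it *Lck*. *Cd3d* averaged 4.27 and 12.6, with 23.9 as its highest value, and *Cd28* was at 0 in all 8 libraries. *Cd3e* averaged 0 in cMyc+early and 7.67 in cMyc+lateCD23int, where 1 library held 30.7, *Cd3g* averaged 7.70 and 4.57, and *Cd4* and *Cd8b1* were at no more than 1 read per library. *Cd8a* averaged 0.241 in cMyc+early and 8.83 in cMyc+lateCD23int, where 1 library held 35.3. *Cd247*, another chain of the T cell receptor complex, averaged 0.885 and 8.95 and was present in 1 cMyc+early and 3 cMyc+lateCD23int libraries, with 25.4 as its highest value. *Cd5*, which T cells and some B cells carry, was at 0, 1.77, 1.92 and 50.6 in cMyc+early and at 34.8, 28.5, 46.7 and 74.4 in cMyc+lateCD23int. The part of T cell RNA in the *Lck* values was not tested.

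In the opposite direction, the gene with the smallest p was *Ccl22* (chr8:94745590-94751699, GRCm38, + strand). It encodes a chemokine that attracts T cells carrying CCR4. Its normalized count was 328, 802, 698 and 1417 in cMyc+early and 117, 44.8, 61.2 and 160 in cMyc+lateCD23int. The lowest cMyc+early library was above the highest cMyc+lateCD23int library, and the difference was 3.06 on the log2 scale (SE 0.71, 95% interval 1.56 to 4.56, limma adjusted p = 0.545). *Ccl22* was at 494 to 1601 in cMyc+prePB and ranged from 39.8 to 605 in cMyc+lateCD23lo. The other genes chosen by the same rule were *Bhlhe41*, *Il9r*, *Mpv17* and the zinc-finger or RNA-binding protein genes *Zfp428*, *Zfp78*, *Zfp239* and *Pcbp3*. *Mpv17*, which encodes a mitochondrial inner membrane protein, averaged 863 ± 242 and 508 ± 66.9. It overlaps the protein-coding gene *Gm29609* on the same strand, and reads may be split between them. *Zfp428*, which overlaps the protein-coding gene *AC161166.1* on the other strand, averaged 84.7 ± 30.3 and 20.7 ± 11.4. *Zfp239* averaged 620 ± 240 and 245 ± 130. *Pcbp3* and *Zfp78* held 3 reads or fewer in each cMyc+lateCD23int library and were at least 11.2-fold and 12.8-fold higher in the mean of cMyc+early, but varied there from 1.81 to 54.5 and from 5.77 to 94.3.

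**Figure D2:**
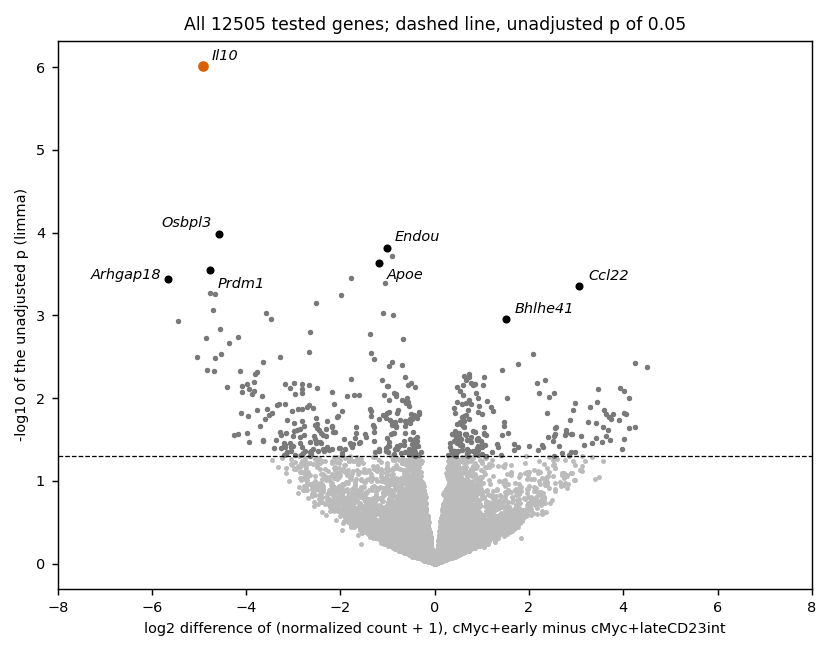
Each point is 1 of 12505 tested genes, with the log2 difference of cMyc+early minus cMyc+lateCD23int on the x axis and -log10 of the unadjusted limma p on the y axis. *Il10* (orange) stands above all other genes, 7 other named genes are in black, 181 genes to the right and 283 to the left lie above the dashed line at 0.05, and 464 genes (3.71%) lie above it in all, where 5% would be 625.

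The precision of the comparison depended on the level of the gene. For the 3651 genes that averaged 1000 or more, the 95% interval of the difference extended a median of 0.44 log2 units to each side, or 1.36-fold. This half-width was 1.88-fold for the 5018 genes with means of 100 to 1000 and 6.22-fold for the 3836 genes with means of 10 to 100. Differences smaller than these were not detectable in a typical gene of each class even before adjustment for the number of genes.

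The markers of the sort were examined as a check of the labels. *Fcer2a* (CD23) had normalized counts of 9454, 17966, 9986 and 16187 in cMyc+early and 6569, 4739, 15019 and 8050 in cMyc+lateCD23int. The groups overlapped through cMyc+lateCD23int replicate 3, and the difference was 0.72 on the log2 scale (95% interval -0.10 to 1.54). *Cr2* (CD21/35) was at 9350, 6079, 5463 and 5659 in cMyc+early and 8658, 6878, 7164 and 5012 in cMyc+lateCD23int, a difference of -0.07 (95% interval -0.79 to 0.65). The RNA of the 2 genes whose protein defined the gates did not separate the groups.

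Of the 9 sorting markers, none reached an unadjusted p under 0.05, and 3 had a higher fitted value in cMyc+early. *Myc* was at 1183, 3503, 1760 and 3563 in cMyc+early and at 857, 1801, 3817 and 1839 in cMyc+lateCD23int (difference 0.32, 95% interval -0.50 to 1.13). Its lowest value in each group was replicate 1. *Cd69* averaged 3160 ± 1243 and 3762 ± 1766, *Cd86* 8865 ± 2357 and 12160 ± 4615, *Cxcr4* 81.5 ± 18.2 and 109 ± 28.9, *Fas*, which encodes CD95, 4500 ± 1298 and 5568 ± 1911, and *Ptprc*, which encodes B220, 36412 ± 4549 and 40942 ± 8163. *Cd38* averaged 2344 ± 1112 and 1905 ± 635.

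Both groups carried the RNA of GC B cells. *Bcl6*, the master repressor of the GC, averaged 2114 ± 419 in cMyc+early and 2385 ± 432 in cMyc+lateCD23int, and the B cell receptor chain gene *Cd79a* 27261 ± 3589 and 28545 ± 2737. Over the 18 tested members of the GC identity list, which holds factors such as *Bcl6* and *Pax5*, the summed level was 75869 to 83572 in cMyc+early and 77997 to 94390 in cMyc+lateCD23int. The fitted value was higher in cMyc+early for 3 members and higher in cMyc+lateCD23int for 15, with a median difference of -0.25, beside -0.03 for all tested genes. There were 2 members with an unadjusted p under 0.05, both higher in cMyc+lateCD23int, beside 2.26% of all tested genes in this direction. They were *Irf8*, a transcription factor of GC B cells, with means of 4783 and 6428, and *Rgs13*, a regulator of G protein signalling. *Rgs13* was at 14588, 9537, 13829 and 10138 in cMyc+early and at 28396, 15834, 13020 and 17631 in cMyc+lateCD23int. Without 1 library at a time, 3 or 4 of the 18 members were higher in cMyc+early.

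Of the genes that the study associates with MBCs, 7 were examined. They were selected on these same libraries as genes that differ among the subpopulations, so that their direction here is not independent evidence. All 7 had a higher fitted value in cMyc+early, with a median difference of 0.80 on the log2 scale, where 47.0% of all tested genes had a higher fitted value in cMyc+early. An unadjusted p under 0.05 was reached by 3 of them, beside 1.45% of all tested genes in this direction, and none passed after adjustment. Leaving out 1 library at a time, all 7 remained higher in cMyc+early, with medians of 0.66 to 0.92. The summed level of the 7 genes was 3949 to 6355 in cMyc+early and 2263 to 3636 in cMyc+lateCD23int, without overlap.

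Of the surface receptors on this list, *Il9r*, the interleukin-9 receptor, was at 350, 327, 205 and 357 in cMyc+early and at 57.7, 46.8, 126 and 179 in cMyc+lateCD23int. *Gpr183*, which encodes the oxysterol receptor EBI2 that guides B cells to the follicle edge, was at 2410, 1638, 1872 and 1447 and at 1234, 1177, 936 and 843. These were the 2 genes of the list whose groups did not overlap, beside 1.11% of all tested genes in this direction, with differences of 1.76 (95% interval 0.64 to 2.88) and 0.80 (95% interval 0.25 to 1.36). *Gpr183* overlaps *Ubac2* on the other strand, and no source used here says that strand was kept in counting. *Ccr6*, the chemokine receptor used to define MBC precursors, was at 1662, 598, 893 and 973 and at 812, 447, 459 and 261. The overlap came from cMyc+lateCD23int replicate 1, the library with the highest mitochondrial share, whose part in the values was not tested. *Ccr6* was higher in cMyc+early for each replicate number, and replicate 1 was its highest library in each subpopulation of the series.

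The other 4 genes of the list overlapped between the groups. *Klf2*, a factor of quiescent lymphocytes, averaged 79.3 ± 49.7 and 39.1 ± 29.9. Its target *S1pr1*, the receptor for egress from lymphoid tissue, averaged 133 ± 42.3 and 88.7 ± 32.4. *Hhex*, a homeobox factor required for memory cells, averaged 272 ± 146 and 186 ± 107, and the adhesion molecule gene *Pecam1* 1130 ± 159 and 920 ± 252. Replicate 1 had the highest value of *Ccr6*, *Klf2* and *Hhex* in both groups.

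**Figure D3:**
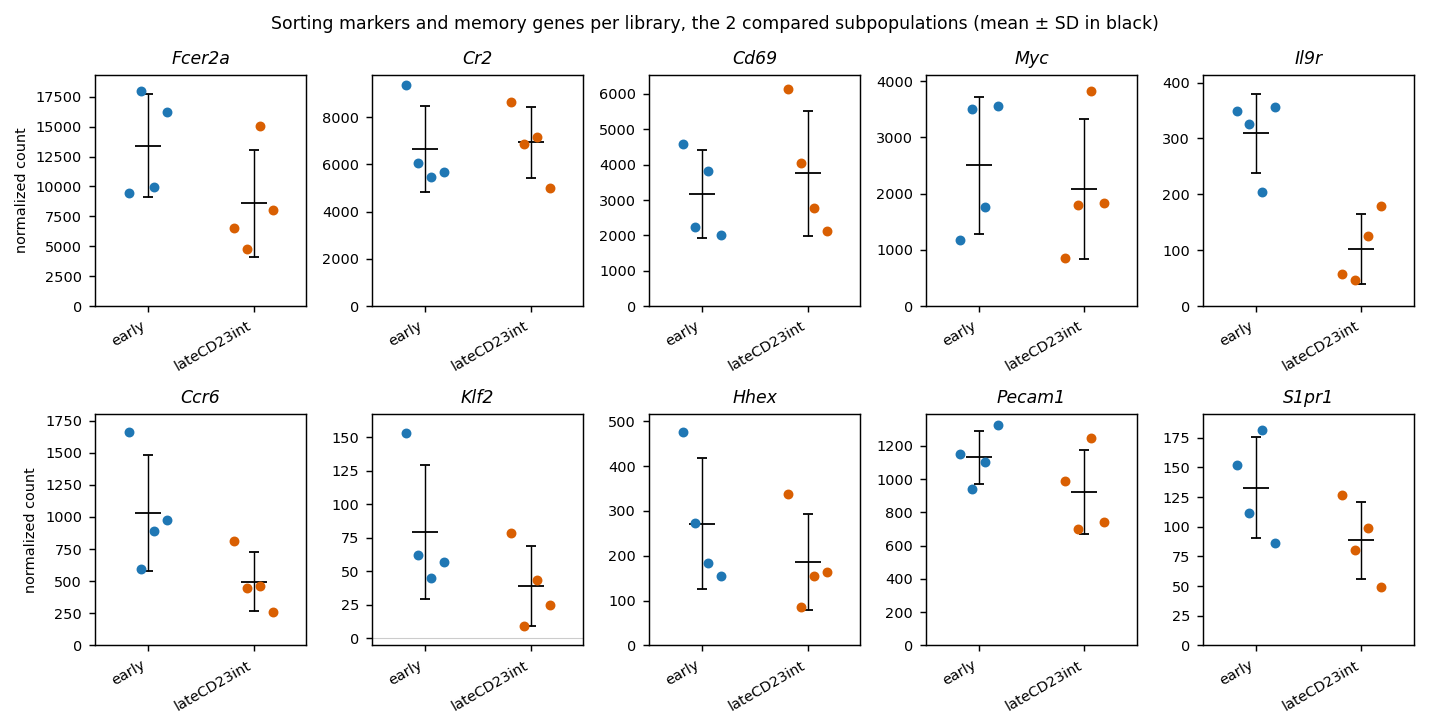
Normalized counts of 4 sorting marker genes and 6 memory genes in the 4 cMyc+early (blue) and 4 cMyc+lateCD23int (orange) libraries, from replicate 1 on the left to replicate 4 on the right in each group, with the mean ± SD in black. The groups overlap in each panel other than *Il9r*, and replicate 1 is the highest in both groups for *Ccr6*, *Klf2* and *Hhex*.

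Genes of plasma cell differentiation were examined as a further list. Of the 11 tested plasma cell markers, 5 had a higher fitted value in cMyc+early and 6 in cMyc+lateCD23int (median difference -0.05). Leaving out 1 library gave 2 (without cMyc+early replicate 3) to 5 higher in cMyc+early, with medians of -0.28 to -0.08. Those with an unadjusted p under 0.05 were 3, all higher in cMyc+lateCD23int, beside 2.26% of all tested genes in this direction. They were *Prdm1*, the elongation factor gene *Ell2* (977 and 1418 on average) and *Jchain*, which encodes the joining chain of polymeric antibody. *Jchain* was at 25890, 18862, 25960 and 23781 in cMyc+early and at 55167, 38337, 26598 and 47076 in cMyc+lateCD23int, where replicate 3 was just above the cMyc+early range. *Sdc1*, which encodes the plasma cell surface marker CD138, averaged 11.5 and 13.2, and *Xbp1*, the factor of the secretory program, 3599 and 3707. Of the 18 tested genes of protein folding in the endoplasmic reticulum, 12 were higher in cMyc+early (median 0.09), beside 47.0% of all tested genes. Of these 12, *Pdia4* had an unadjusted p under 0.05, beside 1.45% of all tested genes in this direction. It averaged 2991 ± 1005 and 1836 ± 299. *Ccnd2*, which encodes cyclin D2 and which the study selected on these libraries, averaged 6128 ± 1242 and 3673 ± 508, with replicate 1 the lowest in each group.

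Heavy chain constant region genes, which record class switching, showed no separation. Of the 8 isotype genes, 4 had a higher fitted value in each group and none had an unadjusted p under 0.05. *Ighm* averaged 59621 ± 6652 in cMyc+early and 49387 ± 3268 in cMyc+lateCD23int, and *Ighg1*, the most abundant switched isotype, 24868 ± 3491 and 26963 ± 6357. *Ighg2c* ranged from 84.9 to 305 and from 120 to 768. Reads of the *Ighg* genes may be split between near-identical copies.

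Genes of the cell cycle and of growth differed little per gene. Of the 54 tested G2/M genes, 45 had a higher fitted value in cMyc+early, with a median difference of 0.21, beside 47.0% of all tested genes. An unadjusted p under 0.05 was reached by 3, all higher in cMyc+early, beside 1.45% of all tested genes. This count was 0 without cMyc+early replicate 3, up to 4 without another library, and 0 without the trended prior. With the replicate number as a block it was 9 in limma and 9 in edgeR, all higher in cMyc+early. Those 2 fits gave 293 and 282 of all 12505 tested genes in this direction. The 3 genes were the cyclin gene *Ccnb2* (8068 and 6073 on average), the kinesin gene *Kif23* (2257 and 1674) and *Nusap1*, a spindle protein gene, which averaged 7507 ± 643 and 5837 ± 791. Without 1 library at a time, 40 to 48 of the 54 were higher in cMyc+early, with medians of 0.13 to 0.25. The 43 S phase genes were split into 20 higher in cMyc+early and 23 higher in cMyc+lateCD23int (median -0.01), and *Mki67*, which marks cycling cells, averaged 13199 ± 1859 and 13006 ± 1406. Genes of one phase can vary together across libraries, so that the number of genes with the same sign is not a number of independent observations.

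Of 27 tested cMyc targets, 22 had a higher fitted value in cMyc+early (median 0.16), beside 47.0% of all tested genes. Leaving out 1 library at a time gave 19 to 27. *Ccnd2* was the only one with an unadjusted p under 0.05, beside 1.45% of all tested genes in this direction. With the replicate number as a block, 7 cMyc targets reached that level in limma and 7 in edgeR, all higher in cMyc+early. The same fits gave 293 and 282 of all 12505 tested genes in this direction. *Eif4a1*, a translation factor gene, averaged 38367 ± 5530 and 39726 ± 2001. Of 15 glycolysis genes, 12 were higher in cMyc+early (median 0.14), beside the same 47.0%. Leaving out 1 library gave 6 (without cMyc+early replicate 4) to 13. Of these genes *Hk2*, the hexokinase gene of activated lymphocytes, had non-overlapping values of 1181, 718, 1472 and 881 in cMyc+early and 516, 659, 666 and 560 in cMyc+lateCD23int. Among all tested genes, 1.11% did not overlap with cMyc+early higher. *Ldha* averaged 14451 ± 3864 and 15053 ± 4253.

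Light zone and activation lists had more members with a higher value in cMyc+lateCD23int, without a single gene past adjustment. Of all tested genes, 47.0% had a higher fitted value in cMyc+early, and 1.45% were higher there at an unadjusted p under 0.05. Of 19 light zone genes, 5 were higher in cMyc+early and 14 in cMyc+lateCD23int (median -0.19). Yet the 3 with an unadjusted p under 0.05 were all higher in cMyc+early. These were *Ccl22*, the cytokine subunit gene *Ebi3* (1288 and 897 on average) and the adhesion receptor gene *Cd44* (4002 and 2923). With 1 library left out, 3 (without cMyc+lateCD23int replicate 2) to 9 (without replicate 3) of the 19 were higher in cMyc+early. *Cd83*, the marker of LZ cells, was at 69620, 63416, 59028 and 45452 in cMyc+early and at 95904, 63535, 70890 and 67997 in cMyc+lateCD23int. Of 17 dark zone genes, 9 were higher in cMyc+early and 8 in cMyc+lateCD23int (median 0.11), and leaving out 1 library gave medians of -0.11 (without cMyc+early replicate 1) to 0.12. Of 14 immediate early genes, 2 were higher in cMyc+early (median -0.29), 1 without cMyc+early replicate 2 or 4 and 5 without cMyc+lateCD23int replicate 3, and none had an unadjusted p under 0.05. *Egr2*, an immediate early factor, ranged from 182 to 815 and from 305 to 1258. Of 19 NF-kB genes, 5 were higher in cMyc+early (median -0.08), a count that was 2 without cMyc+lateCD23int replicate 2 and 11 without its replicate 3. *Nfkbid*, which encodes a nuclear regulator of NF-kB, had values of 268, 375, 256 and 376 in cMyc+early and 451, 665, 904 and 547 in cMyc+lateCD23int.

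Of 20 cytokine receptor genes, 7 were higher in cMyc+early (median -0.20), beside 47.0% of all tested genes. At an unadjusted p under 0.05, 1 was found in each direction, *Il9r* and *Il10ra*. In edgeR on the recovered reads, the unadjusted p was 0.0078 for *Il9r* and 0.082 for *Il10ra*. All tested genes held 1.45% higher in cMyc+early and 2.26% higher in cMyc+lateCD23int at that level. Of 16 regulatory B cell markers, 8 were higher in each group (median 0.08), and leaving out 1 library gave 6 to 9 higher in cMyc+early with medians of -0.24 to 0.20. An unadjusted p under 0.05 was reached by *Ebi3*, higher in cMyc+early without overlap, and by *Cd5* and *Cd9*, higher in cMyc+lateCD23int. In edgeR the unadjusted p was 0.24 for *Cd5* and 0.062 for *Cd9*. Among all tested genes, 1.11% did not overlap with cMyc+early higher. *Cd9*, a tetraspanin gene, averaged 254 ± 122 and 435 ± 177. Of 12 tested B cell cytokine genes, 6 were higher in each group.

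Markers of red cells, platelets and myeloid cells were present in both groups. The summed level of the 6 tested red cell and platelet markers was 480 to 2481 in cMyc+early and 845 to 5035 in cMyc+lateCD23int, with replicate 4 the highest in each group. All 6 had a higher fitted value in cMyc+lateCD23int, with 1, *Hbb-bt*, at an unadjusted p under 0.05, beside 2.26% of all tested genes in this direction. The 6 tested myeloid markers summed to 51.4, 270, 56.8 and 133 in cMyc+early and to 201, 228, 65.4 and 693 in cMyc+lateCD23int, with 4 higher in cMyc+lateCD23int. *Lyz2* reached 489 in cMyc+lateCD23int replicate 4 and 149 in cMyc+early replicate 2. *Csf1r*, a defining marker of macrophages, held at most 4.42 in cMyc+early and 51.1 in cMyc+lateCD23int, where it was present in 2 libraries. The complement gene *C1qa* was at 0 in all cMyc+early libraries and averaged 18.1 in cMyc+lateCD23int, where it was present in 3 libraries, and *C1qc* averaged 2.03 and 13.6. *Itgam*, an integrin gene of myeloid cells, averaged 3.79 in cMyc+early and was at 0 in cMyc+lateCD23int. *Clu*, on the list of stromal markers, was at 1.05 or 0 in cMyc+early and at 55.7, 0, 60.2 and 51.1 in cMyc+lateCD23int. Myeloid cells can also make *Il10* and *Apoe*, and the part of these RNAs in the 2 genes was not tested.

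**Figure D4:**
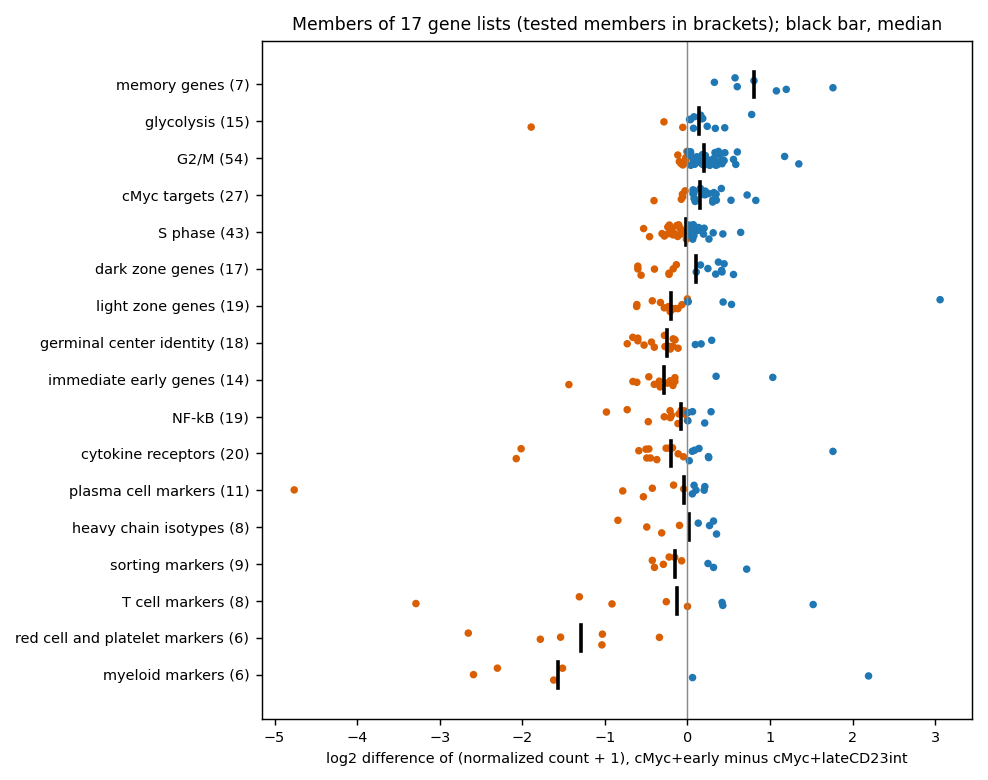
Each point is 1 tested member of a gene list, placed by its log2 difference of cMyc+early minus cMyc+lateCD23int (blue, higher in cMyc+early; orange, higher in or equal in cMyc+lateCD23int), with the median of the list as a black bar. The memory genes lie to the right of 0 with a median of 0.80, the G2/M genes lie mostly to the right with a median of 0.21, and the red cell, platelet and myeloid markers spread widely.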

How the data were processed

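Total RNA of 16 sorted samples was sequenced, and 8 of these were compared here. The deposited values are a signal, the normalized count, which the authors obtained by dividing each library's gene counts by a single size factor. The submitters' processing notes name Trimmomatic 0.36, STAR 2.5.2a, RSEM 1.2.31, DESeq2 1.20.0, R 3.5.1 and the GRCm38 build without their roles. A low-input cDNA kit was used, and no strand setting was given. Columns were assigned by the library names in the labels, and none was left unused. Whole reads were recovered from 100% of the values (all within 4.4e-09 of a whole number), and 3 reads were taken as the floor.

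The test used was that of limma 3.58.1 (R 4.3.3). Normalized counts were put on the log2 scale with a pseudocount of 1, and fitted with 1 model of 4 groups over the 16 libraries, a trended prior, no block and Benjamini-Hochberg adjustment. Means are given ± SD over the 4 libraries of a group, and pairs of means give cMyc+early first. The intervals are those of the fitted difference. The scripts were checked on data with known answers.

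A few genes of the lists are not reported here and are left out of the list counts. The comparison, gene lists and rules were chosen with earlier results of these data known. Genes named were those passing adjustment, the sorting markers, the genes the study names, the *Il10* regulators and receptor genes, the isotypes, the 8 non-overlapping genes per direction with the smallest p and, in each other list, the most abundant member and the one with the smallest p. *Bcl6*, *Irf8*, *Ell2*, *Ccnb2*, *Kif23*, *Ebi3*, *Cd44* and the further genes on marker lists were named after their values were seen. Alternatives were other pseudocounts, filters and scalings, no trend, the 8 libraries alone, the replicate block, edgeR 4.0.16 and DESeq2 1.42.0 on the recovered reads, and leaving out each library. Positions of genes were taken from GENCODE (GRCm38), which held 12484 of the tested genes.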

Additional observations from a re-analysis of the deposited data

Results flagged for a closer look

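Of 214 groups tested with Dixon's criterion (the 107 named genes in both groups), 23 had a library far from the other 3. Chance flags about 1 in 20 groups, and groups in which a single library held a read are counted among the 23. All values are normalized counts.

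For *Ms4a1*, *Cd79b* and *Cd86*, replicate 1 was the highest library in each of the 4 subpopulations. Replicate 1 of cMyc+lateCD23int, the library with a mitochondrial share of 2.95%, was set apart in 4 genes. In it *Ms4a1*, which encodes the B cell antigen CD20, was at 144160 against 66815 to 76954 in the other 3 libraries, *Cd79b*, a chain of the B cell receptor, at 47696 against 24805 to 28037, *Cd86* at 19009 against 9145 to 10771, and *Bid* at 12335 against 10517 to 10568. Replicate 1 of cMyc+early was set apart with *Cr2* at 9350 against 5463 to 6079, *Klf2* at 153 against 45.2 to 61.9, *Ccnd2* at 4280 against 6611 to 6965, *Eif4a1* at 30078 against 40970 to 41406, and *Clu* at 1.05 against 0.

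In the other cMyc+lateCD23int libraries, *Il10* was at 127 in replicate 2 against 44.6 to 49.3, *Mki67* at 15103 in replicate 2 against 12152 to 12510, and *Clu* at 0 in replicate 2 against 51.1 to 60.2. *Vcam1* was at 54.0 in replicate 3 against 0 to 1.02, *Pcbp3* at 1.04 in replicate 3 against 0, *Lyz2* at 489 in replicate 4 against 36.3 to 93.6, and *Zfp78* at 0.929 in replicate 4 against 0.

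In the other cMyc+early libraries, *Ahr* was at 192 in replicate 2 against 4.81 to 17.2 and *Il4ra* at 698 in replicate 2 against 251 to 313. In replicate 3, *Cxcr4* was at 109 against 72.2 to 72.6, *Klrb1c* at 44.3 against 0 and *Prf1* at 78.0 against 0 to 13.3. In replicate 4, *Cd5* was at 50.6 against 0 to 1.92 and *Dusp2* at 320 against 515 to 543.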

How the results depend on the processing

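The adjusted call of *Il10* was kept in 13 of 21 alternatives. Its log2 difference and limma adjusted p were -3.42 and 0.0804 with a pseudocount of 5, -4.92 and 0.105 with a mean of at least 50, and -4.92 and 0.483 with only the 8 libraries, so that 0 genes passed in each; at an unadjusted p under 0.05 these fits gave 185 and 288, 140 and 180, and 188 and 272 genes higher in cMyc+early and in cMyc+lateCD23int. Leaving out 1 library gave -5.12 to -4.57 (adjusted p 0.0188 to 0.118), 0 to 1 genes past adjustment, and 151 to 290 genes higher in cMyc+early and 228 to 411 higher in cMyc+lateCD23int at an unadjusted p under 0.05, where 181 and 283 were found with all libraries. The 290 came without cMyc+lateCD23int replicate 3. Without the filter on low values these counts were 357 and 568. In edgeR on the recovered reads, *Il10* was the 1 gene called (adjusted p = 0.0465). DESeq2 called 20 genes, *Il10* with an adjusted p of 4.66e-07 and, of the named genes, also *Osbpl3*, *Endou*, *Lck*, *Apoe*, *Prdm1*, *Arhgap18*, *Ccl22* and *Bhlhe41*; the cause of this difference between tools was not tested.

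With the replicate number as a block, 1 gene passed in limma (*Il10*, adjusted p = 0.0372). At an unadjusted p under 0.05, 293 genes were higher in cMyc+early and 382 in cMyc+lateCD23int, where 181 and 283 were found without the block. The deviations of same-numbered libraries from their group means correlated at 0.145, -0.05, -0.129 and 0.0747 over all tested genes. Over genes that averaged 1000 or more, they correlated at 0.686, -0.282, -0.592 and 0.302. The numbers were not taken as pairs, since in both sets only number 1 correlated best with its own number. This check covered the 8 libraries only, and a shift shared by libraries of number 1 was not tested. With the block and only the 8 libraries, 0 genes passed and *Il10* was at -4.92 (adjusted p = 1). With the block in edgeR, 0 genes passed and *Il10* was at -5.54 (adjusted p = 0.115). That fit gave 282 genes higher in cMyc+early and 325 higher in cMyc+lateCD23int at an unadjusted p under 0.05. The cause of these changes was not tested.

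Of the 106 other named genes, 27 changed sign when some library was left out, all of them without an adjusted p under 0.05. The ranges of their log2 differences were -0.039 to 0.46 for *Cd38*, -0.045 to 0.67 for *Myc*, -0.42 to 0.016 for *Cxcr5*, -0.46 to 0.052 for *Cd69*, -0.33 to 0.062 for *Hif1a*, -0.24 to 0.042 for *Ighg1*, -0.28 to 0.041 for *Foxp1*, -0.00056 to 0.22 for *Cd74*, -0.34 to 0.083 for *Cd79b*, -0.10 to 0.051 for *Eif4a1*, -1.41 to 0.91 for *Socs2*, -0.016 to 0.39 for *Nfatc2*, -0.25 to 1.16 for *Socs3*, -0.19 to 0.39 for *Il4ra*, -0.23 to 0.11 for *Il10rb*, -0.16 to 0.041 for *Hmgb2*, -0.14 to 0.32 for *Irf4*, -0.047 to 0.16 for *Il2rg*, -0.23 to 0.25 for *Stat3*, -0.20 to 0.11 for *Ldha*, -0.25 to 0.045 for *Cr2*, -0.38 to 0.14 for *Bhlhe40*, -0.90 to 1.39 for *Prf1*, -0.39 to 0.54 for *Bcl3*, -0.073 to 0.091 for *Mki67*, -0.11 to 0.14 for *Jak1* and -0.076 to 0.19 for *Cd40*. *Cd74* was at 0 and *Hmgb2* at 0.016 with quantile normalization. *Socs2* was at 0.72 in edgeR, 0.30 in edgeR with the block and 0.72 in DESeq2, and *Prf1* was at -0.072 in edgeR with the block. Within cMyc+early, the libraries ranged from 0 to 122 for *Socs2* and from 0 to 78.0 for *Prf1*. A value of 0 allows up to 3 reads at this depth.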
